A study of Mus musculus with 12 samples.

Results

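The 12 RNA-seq libraries of naive mouse CD4 T cells in this series were divided here by the transcript of 1 gene, Nr4a1 (Entrez 15370), into the 6 libraries above 45 RPKM and the 6 below it, whatever sorted population the labels gave them. RPKM is reads per kilobase of gene length and per M reads, M standing for mega. The cells came from spleen and lymph nodes of untreated mice that carried the Tg(Nr4a1-EGFP)GY139Gsat transgene together with the Foxp3tm1Flv reporter allele on a C57/BL6 background, and no group lacked either. In that transgene, regulatory sequence of Nr4a1 (also called Nur77) drives green fluorescent protein (GFP), so the sorting read the reporter and not the endogenous transcript. CD4+ cells that were Foxp3-RFP negative and CD44lo were sorted into 4 populations, with 1 library of each from each of 3 mice. Population A was Nur77-GFPlo Ly6C+, B was Nur77-GFPint Ly6C+, C was Nur77-GFPint Ly6Cneg and D was Nur77-GFPhi Ly6Cneg. A library is written as its population and mouse number, so A1 is population A of mouse 1.

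Nr4a1 encodes an orphan nuclear receptor that T cell receptor (TCR) signalling induces within a short time, together with its relatives Nr4a2 and Nr4a3. Naive T cells receive weak TCR signals from self-peptide and MHC without being activated, and the Nur77-GFP reporter and the surface protein CD5 are both used as readings of that basal signal. Ly6C is a surface protein that is lower on naive CD4 T cells with stronger basal signals. In bulk libraries of sorted cells, fewer cells of a type and less RNA per cell cannot be told apart.

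The high side held A1, B2, B3, D1, D2 and D3, and the low side held A2, A3, B1, C1, C2 and C3. Nr4a1, which chose the sides and is therefore no result, ran from 57.7 to 73.3 RPKM (median 64.7) on the high side and from 22.9 to 35.97 (median 26.2) on the low side. The libraries nearest the threshold were A1 at 57.7 RPKM just above it and B1 at 35.97 just below it. All 3 libraries labelled D were high and all 3 labelled C were low. By contrast, A1 was high while A2 and A3 were low, and B1 was low while B2 and B3 were high, so in mouse 1 the A and B libraries went against the other libraries of their label. Each side held 3 libraries labelled Ly6C positive, 3 labelled Ly6C negative, and 2 of each mouse number. The recovered depth was 7.75 to 8.67 M reads (median 8.35) on the high side and 6.31 to 9.07 M (median 6.84) on the low side.

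3 further facts about the libraries touch the results. C3 held 709 RPKM of Jchain, an antibody chain made by plasma cells, against 0.515 to 6.33 in the other 11 libraries, and it was also highest in the B cell genes Cd74 (209 RPKM) and Cd79a (37.4). Genes that such cells share with T cells are therefore given with and without C3. Haemoglobin transcripts split the libraries another way: Hba-a2 was at 3.07 to 9.28 RPKM in A1, B1, C2 and D2 and at 48.9 to 65.6 in the other 8, a set that follows neither a population, a mouse number nor a side. It holds 2 libraries of each side. The median difference between sides of the 83 most different genes described next was 1.47 on the log2 scale within those 4 libraries and 1.5 within the other 8, against 1.46 over all 12. Defining markers of CD4 T cells were high on both sides: Cd4 was at 224 to 229 RPKM on the high side and 226 to 250 on the low side, and Cd3e at 274 to 293 and 268 to 294. Of markers of other cell types, 2 of 14 for B cells, 3 of 8 for plasma cells, 1 of 2 for CD8 T cells, 1 of 10 for NK and innate lymphocytes, 2 of 12 for myeloid cells and 0 of 6 for gamma delta T cells were listed and measured. Their summed levels overlapped between the sides in every one of these lists that had a value (for B cell markers, 8.34 to 28.2 RPKM high against 6.69 to 247 low).

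More genes were higher than lower on the high side, by a margin that depends on scaling. Because the sides were cut from a transcript of the same libraries, the difference carries no test here: a gene is counted when all 6 libraries of one side lie above all 6 of the other. Genes averaging 0.5 RPKM or more were kept, 10020 of them with Nr4a1 left out, and 938 (9.36%) had no overlap. Of these, 620 were higher on the high side (6.19%) and 318 were lower (3.17%). After median rescaling the counts were 544 and 383, and after quantile normalization 532 and 372. The genes that were higher also differed more. Of the 620, 83 differed by at least 1 on the scale of log2(RPKM + 0.5), which understates the difference of low genes, while 0 of the 318 lower genes did. The median difference was 0.36 among the higher and 0.23 among the lower genes, in absolute log2, and 193 of the higher (31.1%) and 171 of the lower (53.8%) stayed under 0.25.

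**Figure D1:**
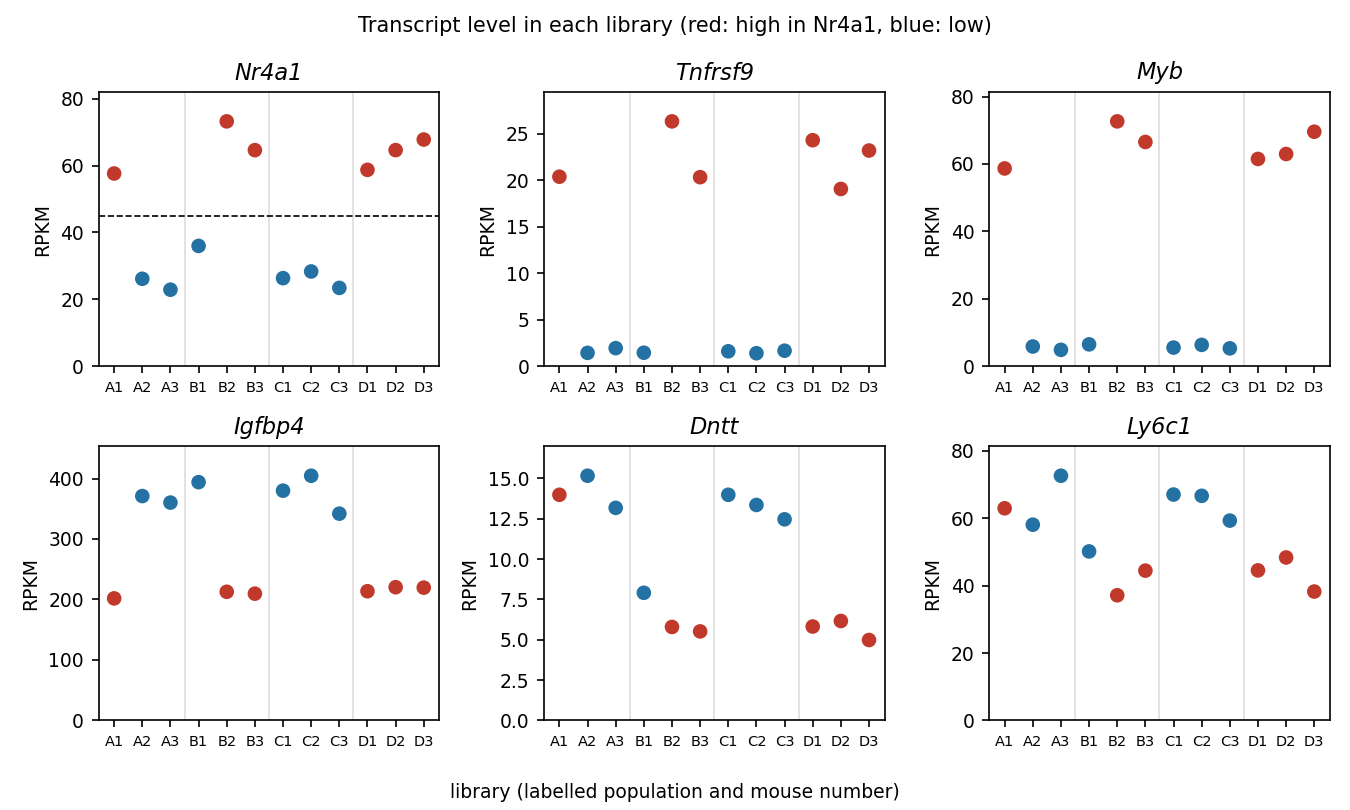
RPKM of 6 genes in each library, by labelled population and mouse number, with the libraries high in Nr4a1 in red and those low in blue; the dashed line in the Nr4a1 panel is the threshold of 45 RPKM. Tnfrsf9 and Myb in A1 and B1 lie with the libraries of like Nr4a1, at 20.4 and 1.43 RPKM for Tnfrsf9, while Dntt and Ly6c1 keep A1 with A2 and A3.

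The largest difference between the mean log2 levels of the sides belonged to Tnfrsf9 (Entrez 21942), which encodes the costimulatory receptor 4-1BB. It ran from 19.1 to 26.4 RPKM (median 21.8) in the high libraries and from 1.38 to 1.93 (median 1.51) in the low ones, a 14.2-fold ratio of means. A1, labelled GFP low, held 20.4 RPKM. Eomes (Entrez 13813), a T-box transcription factor of memory and cytotoxic T cells, stood at 7.62 to 10.5 RPKM (median 9.28) against 0.218 to 0.83 (median 0.327). Its highest low library was B1. The ratio of means of Eomes, 22.5-fold, exceeded that of Tnfrsf9, with a low-side mean of 0.412 RPKM. Myb (Entrez 17863), a transcription factor of progenitor and long-lived lymphocytes, stood at 58.7 to 72.7 RPKM (median 64.7) against 4.81 to 6.44 (median 5.64), 11.5-fold. Lag3 (Entrez 16768), an inhibitory receptor that binds MHC class II, stood at 15.8 to 20.6 RPKM against 0.791 to 3.00, with C3 the highest of the low libraries. The log2 differences of these 4 genes were 3.46, 3.44, 3.42 and 3.15.

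Predicted genes left out, the 12 largest positive differences were taken from genes without overlap between the sides. The other 8 of them follow. Ikzf2, the transcription factor Helios, stood at 5.02 to 6.62 RPKM against 0.444 to 0.686, and Pdcd1, the inhibitory receptor PD-1, at 8.54 to 10.7 against 1.17 to 2.38. Tnfsf11, the cytokine RANKL, stood at 3.81 to 6.20 RPKM against 0.522 to 0.987. A pair of feedback inhibitors followed: Rgs16, which shortens G protein signals, at 3.35 to 5.73 RPKM against 0.136 to 0.565, and Spry1, which restrains Ras-MAPK signalling, at 3.16 to 4.75 against 0.243 to 0.838. The tight junction gene Cldn10 stood at 3.74 to 4.84 RPKM against 0.155 to 0.755. Arhgap20, a GTPase-activating protein, and Itga9, the integrin alpha-9 chain, were near the limit of detection in the low libraries, at 0.041 to 0.127 and 0.016 to 0.207 RPKM, and at 2.42 to 4.03 and 1.99 to 2.57 in the high ones, so only their levels are given.

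**Figure D2:**
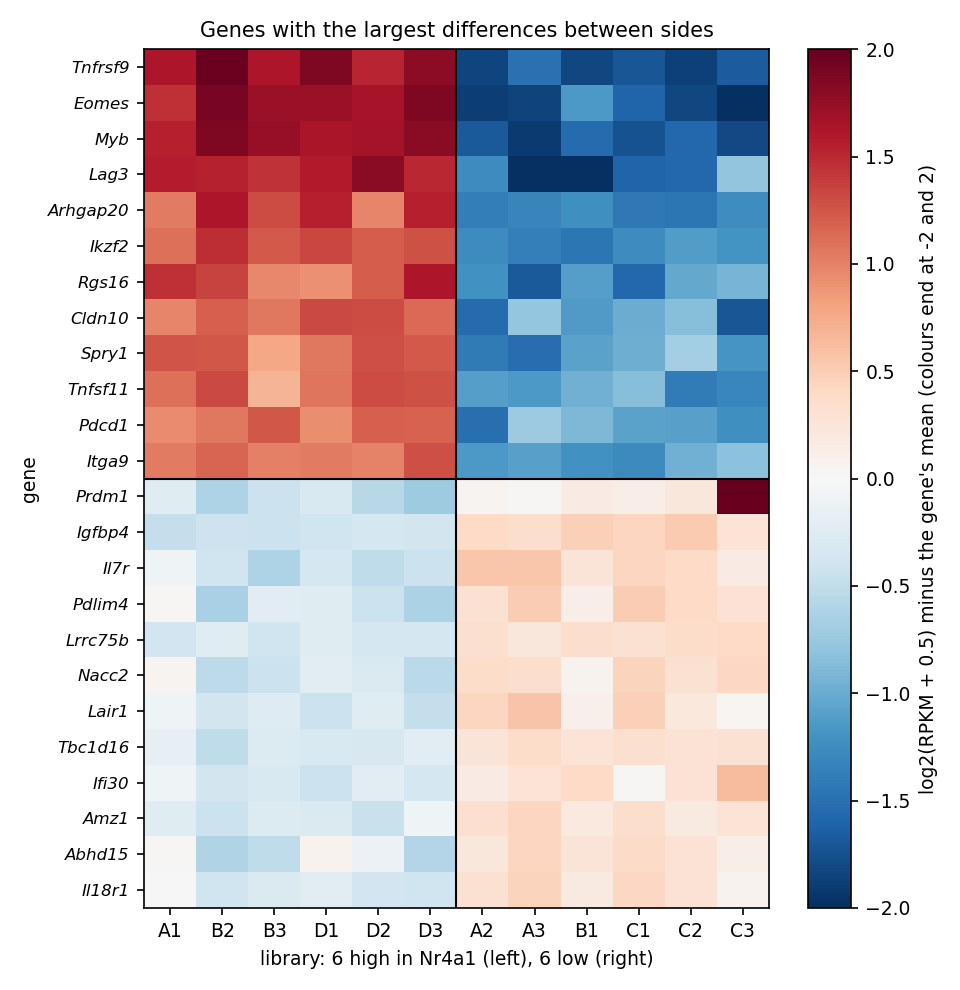
Level of the 12 genes with the largest difference in each direction, taken from genes without overlap between the sides. Levels are log2(RPKM + 0.5) minus the mean of the gene over 12 libraries, with the 6 high libraries left of the vertical line. The upper 12 genes are red in every high library and blue in every low one; the lower 12 show the paler, reverse pattern, and the dark cell of Prdm1 is C3 at 12.3 RPKM.

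The 12 largest negative differences were smaller. Igfbp4 (Entrez 16010), an insulin-like growth factor binding protein of naive and recently made T cells, ran from 202 to 220 RPKM (median 213) in the high libraries and from 342 to 405 (median 375) in the low ones, 43.2% lower. Il7r (Entrez 16197), the survival receptor of naive T cells for interleukin-7, ran from 71.9 to 104 RPKM against 123 to 162, 42.1% lower, with A1 the highest of the high libraries. Pdlim4, a cytoskeletal adaptor, stood at 16.9 to 27.2 RPKM against 29.2 to 38.2, and Il18r1, a chain of the interleukin-18 receptor, at 11.8 to 15.6 against 16.6 to 21.8. Lair1, an inhibitory collagen receptor, stood at 1.64 to 2.30 RPKM against 2.56 to 3.89, and Ifi30, a lysosomal thiol reductase, at 14.5 to 18.3 against 19.8 to 30.5. Lrrc75b, Nacc2, Tbc1d16, Amz1 and Abhd15 were the remaining ones, with log2 differences from -0.66 to -0.57. The largest of all in this direction, Prdm1, which encodes the repressor Blimp-1, had a log2 difference of -0.96 that came to -0.60 without C3. It stood at 1.14 to 1.77 RPKM in the high libraries, at 2.23 to 2.66 in 5 low ones and at 12.3 in C3.

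Libraries labelled D and C give a comparison that the labels set and in which every D library was high and every C library low. Fitted on those 6 libraries alone with limma, with Benjamini-Hochberg adjustment over 10021 genes and a threshold of 0.05, 336 genes rose in D (3.35%) and 145 fell (1.45%). Tnfrsf9 rose by 3.47 ± 0.11 on the log2 scale (± SE, adjusted p = 2.80e-06, limma). Myb rose by 3.40 ± 0.08 (adjusted p = 5.36e-07, limma) and Eomes by 3.56 ± 0.13 (adjusted p = 7.97e-06, limma). Each was higher in D in 3 of 3 mice, which the lack of overlap between the sides fixes in advance. Igfbp4 fell by 0.78 ± 0.06 (adjusted p = 0.000265, limma) and Il7r by 0.76 ± 0.08 (adjusted p = 0.000963). With mouse number as a block, 421 genes rose and 220 fell. The fit was chosen with earlier results known, and it decides the calls: in a fit of all 12 libraries by label, where the split of A and B enters the estimate of spread, 0 genes rose and 1 fell, while 1817 had an unadjusted p under 0.05. The single gene was Dntt, described below. With A1 and B1 left out of that fit of 12, a choice made after seeing the data, 506 rose and 259 fell. Leaving out 1 library of the 6 left 206 rising and 36 falling without D1, 166 and 35 without D2, 172 and 43 without D3, and 225 and 43 without C2.

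The libraries labelled Ly6C positive share no library with D and C, although they come from the same mice. Among them A1, B2 and B3 were high and A2, A3 and B1 low in Nr4a1. Of the 335 genes other than Nr4a1 that rose in D against C, 299 (89.2%) were higher in all 3 high than in all 3 low Ly6C-positive libraries, where 13.5% of all genes were, and 0 were lower in all 3. Of the 145 that fell, 114 (78.6%) were lower without overlap, where 8.57% of all genes were, and 0 were higher. The sizes were close: the median log2 difference of the 335 genes was 0.62 in D minus C and 0.57 in the Ly6C-positive libraries, and that of the 145 was -0.36 and -0.28. Across all 10020 genes the 2 sets of differences had a Pearson r of 0.79, with 69.0% of the same sign. Across the 94 genes that differed by at least 1 between D and C the r was 0.93, with 98.9% of the same sign. Genes are not independent replicates, and the Ly6C-positive libraries were divided by their own Nr4a1, so these values describe and do not test.

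**Figure D3:**
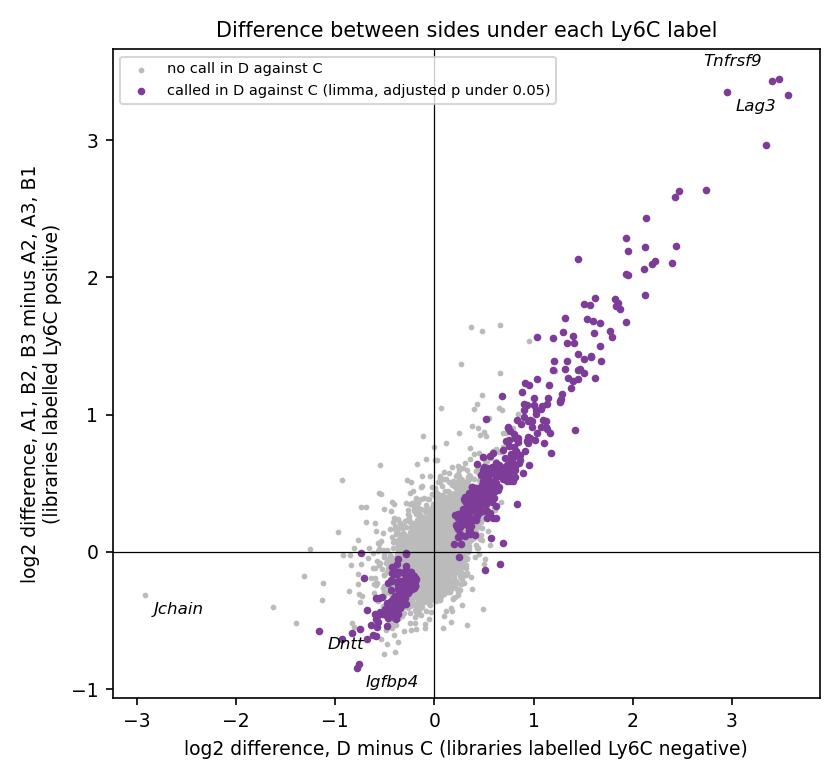
Log2 difference of each gene between D and C (horizontal) and between A1, B2, B3 and A2, A3, B1 (vertical), with genes called by limma in D against C in purple. The purple points run along the diagonal from Igfbp4 at the lower left to Tnfrsf9 at the upper right, and Jchain, at the far left, is the gene of library C3.

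Within a side, the Ly6C label gave no calls. Ly6c1, which encodes a Ly6C protein, was higher in C than in B in each mouse, against the labels, so what follows compares libraries by label and not by a measured level of Ly6C. In the 6 high libraries (D1, D2, D3 against A1, B2, B3), 0 of 10021 genes passed limma's adjusted threshold of 0.05 (0.0%) and 223 had an unadjusted p under 0.05. In the 6 low libraries (C1, C2, C3 against A2, A3, B1), 0 genes passed (0.0%) and 267 had an unadjusted p under 0.05. The count that passed was also 0 under each alternative that was run. The number with an unadjusted p under 0.05 depended on single libraries: it was 547 on the high side without A1 and 339 without D1, and on the low side 832 without B1, 628 without C1, 163 without A2 and 160 without A3. Tnfrsf9 differed by -0.01 ± 0.11 between Ly6C-negative and Ly6C-positive libraries on the high side and by -0.03 ± 0.14 on the low side (log2 ± SE, adjusted p = 0.9996 and 0.993, limma), against its difference between sides of 3.46. Ly6c1 differed by -0.11 ± 0.16 on the high side and by 0.11 ± 0.12 on the low side (adjusted p = 0.9996 and 0.976, limma). A p that misses the threshold with 3 against 3 libraries does not show that the labels share 1 level.

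Lists of genes by role were counted in the same way, beside the 6.19% higher and 3.17% lower over all genes and a median difference of 0.0086 over all genes. The lists share members, were drawn up with earlier results known, and carry no test. Leaving libraries out can only raise such counts. Over all genes they came to 916 higher (9.14%) and 471 lower (4.7%) without A1 and B1. Without C3 they came to 774 higher and 417 lower of 10020. Of 36 listed TCR-induced early genes 33 were measured, of which 12 were higher and 2 lower, with a median log2 difference of 0.29. Without C3 16 were higher and the median was 0.44. In D against C 15 rose and 1 fell. The relatives of Nr4a1 were both higher: Nr4a3 stood at 8.51 to 9.68 RPKM (median 9.49) against 2.62 to 4.17 (median 3.12), and Nr4a2 at 1.28 to 2.36 against 0.137 to 0.298. No library held a level of Nr4a3 between 4.17 and 8.51 RPKM. Egr2, a zinc finger factor of TCR feedback and anergy, stood at 8.23 to 10.2 RPKM against 3.57 to 5.73, and Dusp4, a MAP kinase phosphatase, at 2.09 to 3.21 against 0.232 to 1.03. The list did not move as a whole, for Cd69, an early activation antigen, averaged 53.0 RPKM in the high and 55.9 in the low libraries and its sides overlapped. Egr1 averaged 39.7 and 32.5 RPKM and overlapped too. Irf4, induced in proportion to TCR signal, stood at 8.37 to 11.1 RPKM against 3.17 to 4.07 in 5 low libraries, but C3 held 34.3. Its log2 difference was 0.82 with C3 and 1.34 without. Cd40lg, the ligand that gives help to B cells, was lower, at 75.3 to 87.1 RPKM against 90.9 to 118.

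Promoters are shown for Nr4a1 and for 2 of the genes much higher on the high side, since all 3 hold the 9-base element of the Egr factors. The sequences are from RefSeq (GRCm38.p6), 250 bases before to 50 after the start of the gene, 5′ to 3′ on the strand of the gene, with the element in capitals. They lie at chr15:101266596-101266895 on the plus strand for Nr4a1, chr16:45409004-45409303 on the minus strand for Cd200, and chr9:51765101-51765400 on the plus strand for Arhgap20.
Nr4a1: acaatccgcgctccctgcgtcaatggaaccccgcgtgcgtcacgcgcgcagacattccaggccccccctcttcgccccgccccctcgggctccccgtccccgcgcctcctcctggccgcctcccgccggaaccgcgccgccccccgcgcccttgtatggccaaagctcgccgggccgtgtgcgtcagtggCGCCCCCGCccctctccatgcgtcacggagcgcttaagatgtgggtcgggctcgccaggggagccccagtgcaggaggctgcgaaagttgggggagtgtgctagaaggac
Cd200: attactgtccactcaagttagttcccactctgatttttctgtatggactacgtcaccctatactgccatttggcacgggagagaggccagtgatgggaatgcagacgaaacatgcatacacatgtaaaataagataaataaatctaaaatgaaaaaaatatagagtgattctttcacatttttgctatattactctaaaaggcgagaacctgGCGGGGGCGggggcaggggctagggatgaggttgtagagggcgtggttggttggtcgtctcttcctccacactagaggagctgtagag
Arhgap20: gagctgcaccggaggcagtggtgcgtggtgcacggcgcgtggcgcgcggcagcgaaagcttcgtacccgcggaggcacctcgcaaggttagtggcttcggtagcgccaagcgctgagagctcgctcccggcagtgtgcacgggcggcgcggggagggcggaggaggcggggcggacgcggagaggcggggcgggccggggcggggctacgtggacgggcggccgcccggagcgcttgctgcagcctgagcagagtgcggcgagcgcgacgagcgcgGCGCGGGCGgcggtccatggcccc
The element searched was GCGNGGGCG on both strands, and it begins at -60, -38 and +27 from the gene's start in these 3. It was found in 13 of the 62 promoters matched for genes higher by at least 1 (21.0%), in 68 of 482 for all higher genes (14.1%) and in 25 of 231 for the lower genes (10.8%). The share was 10.5% of 7934 matched promoters of the genes tested and 5.55% over all 27025 genes with a promoter. Only the first listed start of each gene was searched. Over the same promoters of genes higher by at least 1, the AP-1 element TGANTCA was in 9.68% (4.27% of genes tested), the cAMP response element TGACGTCA in 1.61% (3.60%), and the element AAAGGTCA bound by Nr4a receptors themselves in 1.61% (0.83%). The promoters shown were chosen for holding the Egr element. Among the 12 largest positive differences, the promoters of Tnfrsf9, Eomes, Myb, Rgs16, Cldn10, Spry1, Tnfsf11 and Pdcd1 held none of these motifs. That of Itga9 held only the AP-1 element. These motifs do not overlap one another's letters as searched. A match is a description of letters in this window, and factor binding was not measured.

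The list of inhibitory receptors held more higher than lower members. Of 13 measured inhibitory receptors of 18 listed, 7 were higher and 2 lower (median 0.69), and in D against C 6 rose and 1 fell. Besides Lag3 and Pdcd1, Cd200, a ligand that quiets myeloid cells, stood at 12.9 to 16.0 RPKM (median 15.2) against 2.78 to 4.29 (median 3.46), and Ctla4, which competes for CD80 and CD86, at 21.0 to 34.5 against 5.71 to 10.8. Both sides were apart for each. Tigit, which binds the ligand CD155, stood at 3.48 to 6.62 RPKM against 0.630 to 1.83 in 5 low libraries, and C3 held 4.11, within the high range. Its log2 difference was 1.24 with C3 and 1.47 without. Lair1 and Vsir, the receptor VISTA, were the 2 lower members, Vsir at a mean of 66.6 RPKM against 76.4.

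Factors of anergy and tolerance, which keep self-reactive T cells unresponsive, were higher in 18 of 25 measured (26 listed) and lower in 0, with a median of 0.77. In D against C 19 rose and 0 fell. Besides Lag3, Nr4a3, Egr2, Ikzf2 and Pdcd1, they included Izumo1r, the folate receptor 4 of anergic and regulatory T cells, at 53.2 to 65.5 RPKM against 18.1 to 28.8. They also included Nt5e, the ectoenzyme CD73, at a mean of 16.3 RPKM against 7.76, and Cblb, a ubiquitin ligase that damps costimulation, at 25.8 against 20.1. Cblb thus belonged to the smaller differences, 0.35 on the log2 scale. Ndrg1, an anergy factor, was lowest in A1 (2.63 RPKM) among the high libraries, below the highest low library at 2.73, so its sides overlapped.

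Genes of regulatory T cells were higher although cells with the Foxp3 reporter had been gated out. Of 15 measured of 20 listed, 11 were higher and 0 lower (median 1.19), and in D against C 12 rose and 0 fell. Foxp3 (Entrez 20371) itself stood at 3.25 to 4.00 RPKM (median 3.82) in the high libraries and 1.15 to 1.53 (median 1.41) in the low ones, and it rose by 1.16 ± 0.11 in D against C (adjusted p = 0.000721, limma). All 4 defining markers of these cells, Foxp3, Ikzf2, Il2ra and Ctla4, were higher without overlap, and their summed level was 32.8 to 45.7 RPKM against 8.20 to 13.4. What part such cells have in the other differences was not tested. Il2rb, the interleukin-2 receptor beta chain, stood at 29.7 to 34.6 RPKM against 6.53 to 8.61, and Ikzf4, the transcription factor Eos, at 6.4 to 8.81 against 2.08 to 2.48. Il2ra, the alpha chain, was at 2.21 to 2.85 RPKM against 0.290 to 0.758. Nrp1, a receptor of thymus-derived regulatory T cells, overlapped through C3 (0.623 to 0.906 RPKM against 0.257 to 0.871).

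Genes of follicular helper T cells, which direct B cells in germinal centres, were higher in 12 of 19 measured (22 listed) and lower in 1 (median 0.55). In D against C 11 rose and 1 fell. Bcl6, their defining repressor, stood at 18.7 to 20.7 RPKM (median 19.4) against 6.66 to 7.64 (median 7.16), and Cxcr5, the receptor that leads cells to follicles, at 12.6 to 15.0 against 3.67 to 5.24. For both genes the gap between the sides was wider than the range within either side. Maf, a factor that drives their cytokines, stood at 7.80 to 10.2 RPKM against 2.94 to 4.11, Tox2 at 3.26 to 5.09 against 0.852 to 1.40, and the cytokine Il21 at 1.43 to 2.57 against 0.25 to 0.544. Bcl6 rose by 1.45 ± 0.07 in D against C (adjusted p = 1.91e-05, limma) and Cxcr5 by 1.34 ± 0.08 (adjusted p = 5.96e-05). Il6ra, through which interleukin-6 acts, was the 1 lower member, at a mean of 90.1 RPKM against 111. Pou2af1, a coactivator shared with B cells, stood at 11.7 to 15.2 RPKM against 2.78 to 4.14 in 5 low libraries and 56.8 in C3, with a log2 difference of 1.16 with C3 and 1.80 without.

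**Figure D4:**
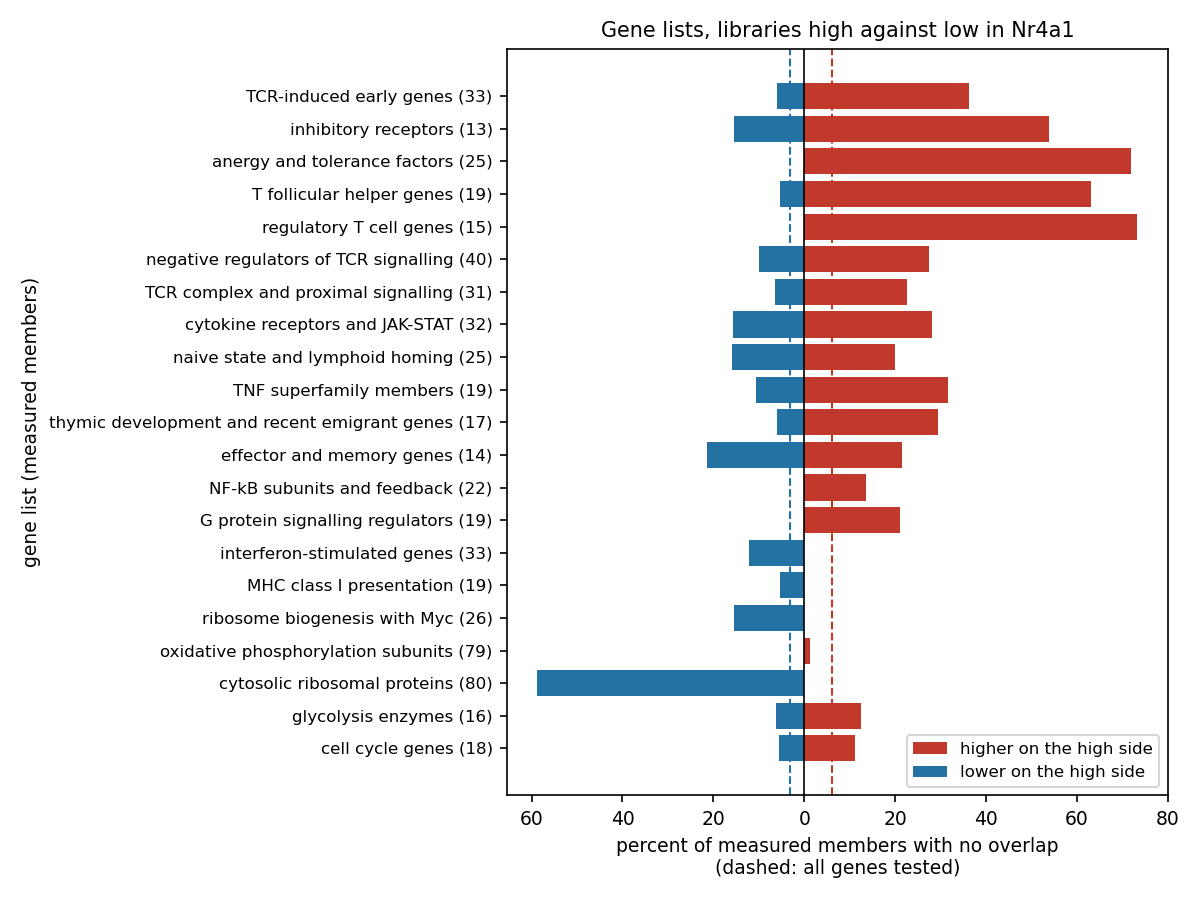
Percent of the measured members of each gene list (number in brackets) whose 6 high libraries all lie above (red, right) or all below (blue, left) the 6 low libraries, with the same percent over all genes, 6.19 and 3.17, as dashed lines. The longest red bars are those of regulatory T cell genes (11 of 15) and anergy and tolerance factors (18 of 25), and the longest blue bar is that of cytosolic ribosomal proteins (47 of 80).

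The signalling machinery itself differed less. Of 31 measured genes of the TCR complex and proximal signalling 7 were higher and 2 lower (4 lower without C3), with a median of 0.03. Without C3, 417 of 10020 genes over all were lower. In D against C 3 rose and 1 fell. Nfatc1, a calcium-dependent factor, stood at 33.0 to 39.6 RPKM against 22.6 to 25.4, the costimulatory receptor Cd28 at 70.4 to 85.1 against 49.6 to 62.3, and the kinase Zap70 at 83.7 to 94.9 against 72.2 to 81.4. Negative regulators of TCR signalling split: 11 of 40 measured were higher and 4 lower (median 0.10), and in D against C 10 rose and 3 fell. Cd5 (Entrez 12507) was counted among the early genes and the inhibitory receptors and not in this list. This surface brake, whose level is set by self-recognition in the thymus, stood at 241 to 332 RPKM (median 307) against 156 to 236 (median 175). Here A1 was the lowest high library and B1 the highest low one, so the sides nearly met in mouse 1. The diacylglycerol kinase Dgkz stood at 134 to 157 RPKM against 93.0 to 110, and Ubash3b, the phosphatase Sts-1, at 15.1 to 17.1 against 7.64 to 12.3. On the other side, Socs3, the inhibitor of cytokine signals, was lower at 72.5 to 77.8 RPKM against 92.7 to 107, and Sit1, a transmembrane adaptor, at 31.5 to 39.7 against 42.2 to 50.9. Both fell in D against C, by 0.43 ± 0.06 for Socs3 (adjusted p = 0.00449, limma) and 0.40 ± 0.07 for Sit1 (adjusted p = 0.0173).

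Cytokine receptors and their kinases were higher in 9 and lower in 5 of 32 measured (median 0.09), and in D against C 6 rose and 4 fell. The interleukin-2 receptor chains Il2ra and Il2rb were higher, while the third chain, Il2rg, which several cytokine receptors share, was lower at a mean of 227 RPKM against 243. The other 4 lower members were Il7r, Il6ra, Il4ra and Il18r1. Of 19 measured TNF superfamily members 6 were higher and 2 lower. Tnfrsf4, the costimulatory receptor OX40, stood at 12.6 to 15.3 RPKM against 7.29 to 8.77. Of 17 thymic development and recent emigrant genes 5 were higher and 1 lower: Sox4 stood at 13.9 to 17.7 RPKM against 3.28 to 4.88, and Id3, an inhibitor of E proteins induced by TCR signals, at 37.5 to 47.8 against 23.4 to 29.9. Runx3 was the lower one, at a mean of 17.8 RPKM against 23.3. Of 22 NF-kB genes 3 were higher and 0 lower. Without A1 and B1 6 were higher, where the share over all genes was 9.14%. Of 19 G protein signalling regulators 4 were higher and 0 lower, with Rgs10 at 104 to 124 RPKM against 71.8 to 84.7.

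Genes of the naive state and of homing had no common direction, with 5 higher and 4 lower of 25 (median -0.01). Igfbp4 and Il7r were lower, as was Txnip, a glucose uptake inhibitor, at a mean of 281 RPKM against 349. Ccr9, a gut-homing receptor, was higher at 1.88 to 2.84 RPKM against 0.940 to 1.49. Of 14 measured effector and memory genes 3 were higher and 3 lower. Without A1 and B1 5 were lower, where the share over all genes was 4.7%. Hopx stood at 4.85 to 5.77 RPKM against 2.46 to 3.68, while Ly6a, the antigen Sca-1, was lower at 46.5 to 59.98 against 62.4 to 93.3. Cd44, the antigen by whose low level the cells had been gated, stood at 6.05 to 7.40 RPKM on the high side and at 5.92 to 7.38 in 5 low libraries, with C3 at 12.8.

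Among the housekeeping lists, that of cytosolic ribosomal proteins held the most genes without overlap, a count that depends on scaling. Of 80 cytosolic ribosomal protein genes 47 were lower without overlap and 0 higher, all 80 had a difference below 0 with a median of -0.16, and after quantile normalization 10 were lower, 1 higher and 63 below 0, with a median of -0.03. Rplp1, of the ribosomal stalk, and Rps16, of the small subunit, were 16.3% and 15.4% lower. Among 79 subunits of oxidative phosphorylation 1 was higher and 0 lower. Of 26 ribosome biogenesis genes with Myc 4 were lower, Myc among them at 22.9 to 26.8 RPKM against 27.1 to 30.1. Without A1 and B1 7 were lower, where the share over all genes was 4.7%. Of 33 interferon-stimulated genes 4 were lower and 0 higher, with Oas2 at 12.1 to 17.1 RPKM against 17.4 to 20.7. Of 16 glycolysis enzymes and glucose transporters 2 were higher and 1 lower, Gapdh being 1.16-fold higher. Of 18 cell cycle genes 2 were higher and 1 lower with a median of 0.13. Without C3, where 774 of 10020 genes over all were higher, 5 of the 18 were higher and the median was 0.27. The lower one was Ccnd2, cyclin D2, at 83.7 to 89.2 RPKM against 100 to 109. Mki67, a marker of dividing cells, was at 1.84 to 3.27 RPKM against 0.550 to 1.11 in 5 low libraries and 17.1 in C3. None of the 5 measured stress genes was without overlap between the sides. The heat shock genes Hspa1a and Hspa1b instead divided the libraries as haemoglobin did: Hspa1a was at 28.6 to 47.0 RPKM in A1, B1, C2 and D2 and at 47.2 to 66.0 in the other 8, and Hspa1b at 94.4 to 144 against 153 to 211.

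A1 and B1 were then placed on the scale set by the other 10 libraries, without using their own values, where 0 is the mean of the low and 1 the mean of the high libraries. Without these 2, 916 genes were higher (9.14%) and 471 lower (4.7%), Nr4a1 again left out. For the 92 higher genes that differed by at least 1, the median position of A1 was 0.92 and that of B1 was 0.05, and in 90 both libraries lay nearer the side of their own Nr4a1. Over higher genes of any size, 550 of 916 (60.04%) had both libraries with their Nr4a1 and 91 (9.93%) had both against it. Among the lower genes the counts were 282 (59.9%) and 49 (10.4%) of 471. Tnfrsf9 placed A1 at 0.96 and B1 at -0.03.

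**Figure D5:**
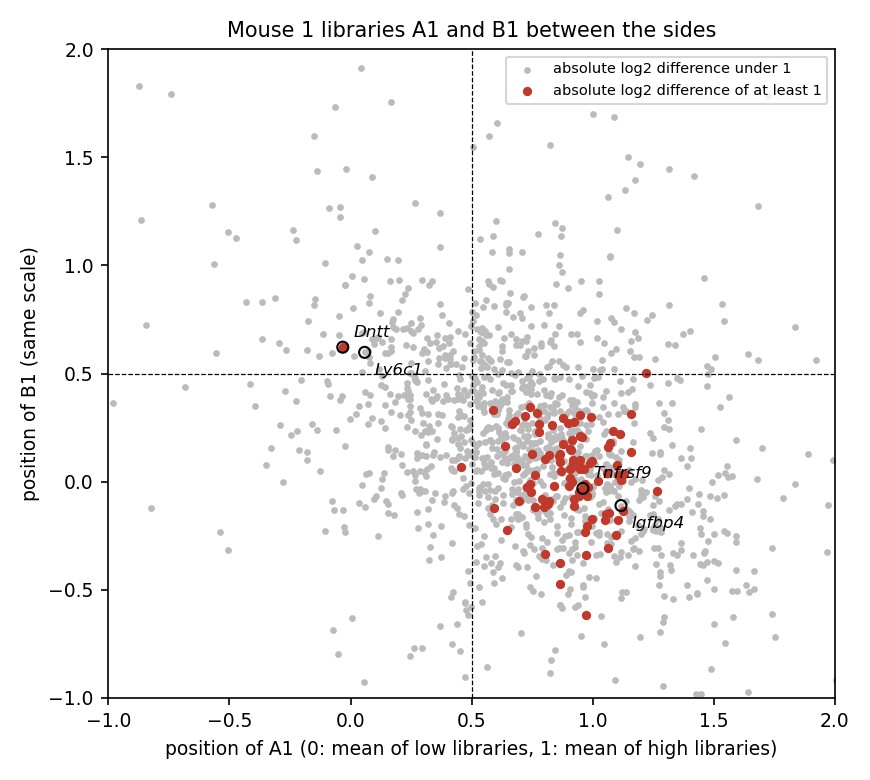
Position of A1 (horizontal) and B1 (vertical) on the scale of the other libraries, where 0 is the mean of the low and 1 the mean of the high libraries, for 1387 genes without overlap in those 10 libraries (23 lie outside the axes). Genes that differ by at least 1 (red) gather at the lower right, where A1 is like the high and B1 like the low libraries, and Dntt and Ly6c1 lie at the upper left.

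Dntt and Ly6c1, both of the reverse kind, followed the population letter and not Nr4a1. They matched neither the Ly6C nor the GFP label. A and B are both labelled Ly6C positive and B and C are both labelled GFPint, yet each pair differed. Dntt (Entrez 21673) encodes the terminal transferase that adds nucleotides to antigen receptor genes in the thymus. It stood at 14.0, 15.2 and 13.2 RPKM in A1, A2 and A3, at 7.91, 5.79 and 5.51 in B1, B2 and B3, at 14.0, 13.3 and 12.5 in C1, C2 and C3, and at 5.82, 6.16 and 4.98 in D1, D2 and D3. All A and C libraries were thus above all B and D libraries, and the sides of Nr4a1 overlapped. Dntt fell by 1.17 ± 0.09 in D against C (adjusted p = 0.00026, limma). Ly6c1 divided the libraries alike, at 63.0, 58.1 and 72.6 RPKM in A, 50.2, 37.1 and 44.5 in B, 67.0, 66.7 and 59.3 in C, and 44.5, 48.4 and 38.2 in D. Its level was thus high in C, labelled Ly6C negative, and low in B, labelled Ly6C positive, against the sort labels. Gpr34, Ogfod3, Myo6, Gbp11 and Kif23 also had A1 and B1 both nearer the side opposite to their Nr4a1. They were chosen by size among the genes of this kind, whatever the direction. Ogfod3, for one, was at 3.39 RPKM in A1 against 1.73 to 2.32 in the other high libraries.

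The genes with A1 and B1 against their Nr4a1 also differed from the rest in base composition. Median GC content of the longest transcript was 55.4% for the 91 higher genes of this kind and 45.1% for the 49 lower ones, against 49.95% and 51.4% for the higher and lower genes with both libraries on the side of their Nr4a1. Over all genes it was 49.4%. Across genes, the correlation of GC content with the difference between sides was 0.06, but it was -0.21 within mouse 1, 0.14 within mouse 2 and 0.19 within mouse 3. The part of base composition in the smaller differences was not tested. The difference was also taken within each mouse number. For the 83 higher genes that differed by at least 1, the lack of overlap fixes a difference above 0 in each of the 3 mice. Of these 83, 63 had a difference of at least 1 in each. The spread between the mouse with the largest and that with the smallest difference had a median of 0.32 on the log2 scale and reached 1.08 in Cxxc5. The differences of Tnfrsf9 were 3.50, 3.59 and 3.28, and those of Cd200 were 1.96, 2.06 and 1.90. Those of Dusp4, of which C3 was the highest low library, were 1.96, 2.05 and 1.36, and those of Cd5 were 0.41, 0.80 and 0.96.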

How the data were processed

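RNA of 12 libraries was measured with the SMART-seq v4 and NexteraXT kits, per the labels' protocols. The authors deposited 1 table of RPKM values for 10073 genes, per the file headers. The submitters' processing notes name STAR and the builds mm9 and mm10, with no role or version, and the counting tool was not given in the sources used here. RPKM times length and depth gave whole reads within 0.1 read for all values examined, which yielded each library's depth. RPKM are not counts, so log2(RPKM + 0.5) was tested with limma (version 3.58.1, R version 4.3.3, trend option on) for the 10021 genes averaging 0.5 RPKM or more, with Benjamini-Hochberg adjustment and a threshold of 0.05. Both steps were tested on simulated data. Python 3.11.15 with pandas 2.3.3, scipy 1.17.1 and matplotlib 3.10.9 did the rest.

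The sides, the 30 gene lists and the tests were chosen with earlier results of these data known. Named are the sort checks, the 12 largest differences without overlap in each direction with at least 2 RPKM on the higher side (clone and predicted-gene names left out), and from each list up to 4 members without overlap and 1 with overlap, the rest by position of A1 and B1. Dntt, Bcl6, Cxcr5, Maf, Nr4a3, Egr2, Ikzf4, Izumo1r, Socs3, Sit1 and Cd40lg, and list members given by means alone, were named after their values were seen. Of the naive cell markers, 1 is not reported here. Libraries with 1 mouse number come from 1 animal per the labels, and this alone pairs them, since haemoglobin levels follow no mouse number. The deviations of same-numbered libraries from their population means correlated at -0.07 on average across genes, with 1 of 18 pairs over 0.1. Taken from the means of side and Ly6C label, 4 of 18 were over 0.1. The 3 pairs of C and D averaged 0.18, with 1 over 0.1. All libraries are biological replicates per the labels. GC content came from GENCODE M21 transcripts (98.2% of genes matched), and promoters from RefSeq by symbol.

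The counts between the sides, the limma comparisons and the named genes were recomputed with the pseudocount at 0.1 or 1, with the filter dropped or set to 5 RPKM, after median rescaling or quantile normalization, with the mouse number as a block, for limma in a fit of all 12 libraries, and leaving out each library or A1 with B1. Counts over gene lists were recomputed after either scaling and without A1 and B1 or C3, and those in the Ly6C-positive libraries after quantile normalization and without A1 and B1. Positions of A1 and B1, GC content and motifs were not recomputed.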

Additional observations from a re-analysis of the deposited data

Results flagged for a closer look

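For each named gene, the 6 libraries of a side were searched for 1 value far from the other 5 (a gap above Dixon's 95% value). Of 260 such groups 28 had one (10.8%). The nominal rate of 1 in 20 does not apply here. Some named genes were chosen for the position of A1 and B1 or for overlap between the sides. Library C3 accounted for 16, A1 for 7, D2 for 3 and B1 for 2.

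C3 was the highest low library for antibody-secreting and B cell genes, with 709 RPKM of Jchain, 116 of Xbp1, 12.3 of Prdm1, 209 of Cd74, 37.4 of Cd79a and 56.8 of Pou2af1. It was also highest for Mki67 (17.1 RPKM), Irf4 (34.3), Cst3 (41.8), Cd44 (12.8), Fos (125), Tigit (4.11), Anxa2 (2.28), Dusp4 (1.03) and Nrp1 (0.871), and lowest for Tox (6.01). For Tigit, Irf4, Pou2af1, Nrp1, Anxa2 and Mki67 this 1 library was the one low library that reached the high range.

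A1 was the lowest high library for Cd5 (241 RPKM), Fyn (130) and Ndrg1 (2.63), and the highest for Dntt (14.0), Ogfod3 (3.39), Myo6 (3.29) and Klrd1 (16.4). In each of the 7 its value lay towards the low side. B1 was the lowest low library for Dntt (7.91 RPKM), towards the high side, and for Nr4a2 (0.137), away from it. D2 was the highest high library for Lag3 (20.6 RPKM) and Cd74 (19.7) and the lowest for Foxp3 (3.25), which still left Lag3 and Foxp3 without overlap.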

How the results depend on the processing

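The counts of genes without overlap between the sides stayed within 1.5 times of 620 higher and 318 lower under every alternative run. The pseudocount cannot change these counts, and leaving out libraries can only raise them. The higher ranged from 437 (filter of 5 RPKM) to 916 (without A1 and B1) and the lower from 287 to 471; without C3 they were 774 and 417. Values centred on each mouse number (the replicate block) gave 738 and 424, median rescaling 544 and 383, and quantile normalization 532 and 372. In D against C the replicate block gave 220 genes that fell, the filter of 5 RPKM 207 that rose, and the fit of all 12 libraries 0 and 1. Without A1 and B1 that fit gave 506 and 259. Leaving out 1 library gave 166 to 449 that rose and 35 to 202 that fell. The 12-library fit holds the spread of A and B, whose libraries lie on both sides; other causes of these changes were not tested. No named gene without overlap between the sides changed its sign after median rescaling or quantile normalization. Under the other alternatives the lack of overlap leaves no room for a change of sign. Signs did change without C3 for Cd44, Cd74, Cd79a, Cst3 and Xbp1, which overlapped. Of the named genes' D against C results, 74 lost their call in the fit of 12. The median difference of all genes was -0.0073 after median rescaling and -0.014 after quantile normalization. Depth limits genes near 0.1 RPKM, such as Arhgap20 and Itga9 on the low side.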

Other observations

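Genes outside the lists also separated the sides, and those given here were picked after their values were seen. Among the higher ones of good abundance were Ephx1, an epoxide hydrolase, at 86.1 ± 6.43 RPKM in the high and 42.4 ± 4.25 in the low libraries (mean ± SD, n = 6 each), and Itm2a, a membrane protein of activated thymocytes, at 78.4 ± 4.84 against 34.6 ± 4.73. The transcription factors Pou2f2, known from B cells as Oct-2, and Gfi1, a repressor of haematopoietic cells, stood at 13.5 ± 1.07 against 4.59 ± 0.464 RPKM and at 11.1 ± 1.30 against 5.06 ± 0.858. Ptger2, a prostaglandin E2 receptor, stood at 2.71 ± 0.341 RPKM against 0.5 ± 0.14, and Tiam1, a Rac exchange factor, at 3.48 ± 0.214 against 1.21 ± 0.139. All 6 of these genes rose in D against C (limma, adjusted p from 0.000108 for Ephx1 to 0.000691 for Gfi1). Bcl2a1b, which resists cell death, was at 16.7 ± 1.72 RPKM against 7.80 ± 1.99, a value that is uncertain because near-identical copies such as Bcl2a1d can share its reads.

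Of the lower genes outside the lists, 3 are given, also picked after their values were seen. Vim, the intermediate filament vimentin, ran from 84.1 to 90.9 RPKM in the high and from 113.8 to 120.3 in the low libraries, and Tagln2, an actin-binding protein, from 91.4 to 116.8 against 136.8 to 155.9. Arl4c, a small GTPase, ran from 149.6 to 158.5 RPKM against 194.5 to 214.6. All 3 fell in D against C, by 0.38 for Vim (limma, adjusted p = 0.00174), 0.53 for Tagln2 (adjusted p = 0.000927) and 0.44 for Arl4c (adjusted p = 0.00226). Prf1, the pore-forming perforin, is in 1 of the lists and fell by 0.43 in D against C (adjusted p = 0.0145, limma). Over all 12 libraries it averaged 12.4 RPKM on the high and 16.4 on the low side.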
